A study of Mus musculus with 28 samples.

Results

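The genes described here are 9 regulators of apoptosis and NF-kappaB signalling: Rela, Nfkbia, Birc2, Birc3, Bcl2l11, Bid, Bcl2l14, Bcl2l1 and Bak1. They were chosen by symbol, and every probe set annotated to one of these symbols was taken. That gave 25 of the 45037 probe sets on the array, for 9 of 18193 named genes. Of the 25, 11 lay at or above the median of all probe sets in each of the 10 groups of arrays, and 5 lay below it in every group.

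The study measured testis RNA on 28 one-colour arrays and asked how transcripts on polysomes depend on GRTH, the gonadotropin-regulated testicular RNA helicase encoded by Ddx25. All mice were adult C57BL/6 males, either wild type (WT) or GRTH null (KO). The groups were WT and KO purified spermatocytes (4 arrays each), WT and KO purified round spermatids (3 each), WT and KO purified Leydig cells (2 each) and WT and KO total polysome RNA of the testis (3 each). The last groups were RNA precipitated from WT polysomes by an antibody to GRTH (GRTH IP) or by IgG as its control (IgG IP), with 2 arrays each. Cells came from centrifugal elutriation and polysomes from sucrose gradients. The labels do not say whether arrays of a group came from separate animals, so p-values measure the spread between these arrays, which may be technical.

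NF-kappaB is a family of dimeric transcription factors held inactive in the cytoplasm by inhibitors of the I-kappaB type, and Rela and Nfkbia encode its best known subunit and inhibitor. Birc2 and Birc3 encode ubiquitin ligases of the inhibitor of apoptosis family that act downstream of tumour necrosis factor receptors. Proteins of the Bcl-2 family decide whether the outer mitochondrial membrane is opened: Bcl2l1 protects it, Bak1 forms the pores, and Bcl2l11 and Bid are BH3-only proteins that promote pore formation. Many germ cells die by apoptosis in the normal testis, mainly during the first meiotic wave and when meiosis goes wrong.

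Stretches of 250 bases upstream of the start site are shown for 4 genes on which the results turn: 1 inhibitor of NF-kappaB, 1 inhibitor of apoptosis and 2 Bcl-2 family genes. They are RefSeq sequences on build GRCm38.p6, written 5′ to 3′ on the gene's strand, and all 9 members matched the promoter table, with 14 start sites. Nfkbia lies at chr12:55492648-55492897 (minus strand), Birc2 at chr9:7837058-7837307 (minus), Bcl2l11 at chr2:128125788-128126037 (plus) and Bcl2l14 at chr6:134396079-134396328 (plus), each for the most upstream start site. Capitals mark a match to the NF-kappaB consensus or to the cyclic AMP response element TGACGTCA, searched on both strands.
Nfkbia: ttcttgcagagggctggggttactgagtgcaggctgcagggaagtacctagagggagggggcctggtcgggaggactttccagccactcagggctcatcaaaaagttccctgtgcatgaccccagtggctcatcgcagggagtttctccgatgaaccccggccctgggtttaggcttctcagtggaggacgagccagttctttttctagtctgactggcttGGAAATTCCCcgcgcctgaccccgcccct
Birc2: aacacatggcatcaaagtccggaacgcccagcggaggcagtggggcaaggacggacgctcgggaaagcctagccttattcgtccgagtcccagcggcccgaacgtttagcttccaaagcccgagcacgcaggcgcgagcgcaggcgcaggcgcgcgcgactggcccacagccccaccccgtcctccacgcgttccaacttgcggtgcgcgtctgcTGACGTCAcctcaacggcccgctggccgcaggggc
Bcl2l11: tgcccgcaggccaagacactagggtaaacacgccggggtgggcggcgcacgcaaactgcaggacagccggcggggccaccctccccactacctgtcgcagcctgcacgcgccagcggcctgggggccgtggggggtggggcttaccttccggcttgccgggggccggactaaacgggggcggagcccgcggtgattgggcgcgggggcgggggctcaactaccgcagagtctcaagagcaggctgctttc
Bcl2l14: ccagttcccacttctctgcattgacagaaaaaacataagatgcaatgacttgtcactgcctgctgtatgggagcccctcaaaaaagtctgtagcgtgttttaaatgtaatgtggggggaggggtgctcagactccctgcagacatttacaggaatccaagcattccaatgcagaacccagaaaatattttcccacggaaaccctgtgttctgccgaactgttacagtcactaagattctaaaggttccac
The Nfkbia stretch held the NF-kappaB match GGAAATTCCC 29 to 20 bases before the start site, and the Birc2 stretch held TGACGTCA 35 to 28 bases before it. Of 32851 such windows in the table, 3.9% held an NF-kappaB match and 1.55% the cyclic AMP element. The only other match among the members' 14 start sites was GGGGGTCTCC in the window of the second Bcl2l1 start site, 242 to 233 bases before it. The matches of the 2 motifs did not overlap, and a match describes letters only.

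Signals are linear array intensities rescaled to a trimmed mean of 500, differences are on the scale of log2(signal + 16), and a difference passed the test where limma's adjusted p was under 0.05. Adding 16 understates the change of dim probe sets. Ddx25 passed as lower in all 4 KO sources: it fell by 4.35 ± 0.32 (SE) on the log2 scale in polysome RNA and fell by 1.97 to 2.26 in the cell fractions. Each fraction also carried marker signal of other cell types. Leydig cell markers (4 of 7 listed were measured) summed to 20473 to 20492 in WT Leydig cells, 4019 to 4645 in WT spermatocytes and 619 to 630 in WT round spermatids. Elongating spermatid markers (7 measured) summed to 126688 to 128040 in WT Leydig cells against 97720 to 123414 in WT spermatocytes. A transcript level in such RNA mixes all cells present, and fewer cells of a type cannot be told apart from less RNA per cell. Replicate arrays differed with an SD of log2 differences of 0.605 to 0.861 in polysome RNA, 1.22 to 1.40 in the IP samples, 0.325 to 0.562 in germ cells and 0.284 to 0.308 in Leydig cells. Within the germ cell groups, arrays 1 and 2, and spermatocyte arrays 3 and 4, were nearer to each other than to the rest. The 4 polysome arrays that were deposited on another scale were rescaled like the others, and 4 arrays (IgG IP array 1, WT polysome arrays 1 and 2 and KO polysome array 1) carry a free-text description that disagrees with their title.

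Across the 4 KO sources, Bcl2l14 was lower, and Birc2 and the brightest probe set of Bcl2l11 passed the test as higher in all 3 cell fractions. Rela rose in KO round spermatids, and Nfkbia and Birc3 rose in the KO Leydig cell fraction. In polysome RNA 1 of 25 member probe sets passed the test, as lower, against 0.557% of all probe sets (0.0222% higher and 0.535% lower). In spermatocytes 7 of 25 passed, 4 higher and 3 lower, against 8.48% of all (4.16% higher and 4.33% lower). In round spermatids 8 passed, 5 higher and 3 lower, against 16.1% (10.1% and 6.04%). In Leydig cells 13 passed, 10 higher and 3 lower, against 30.1% (19.1% and 11%). The median difference of the 25 was 0.372 in polysome RNA, 0.22 in spermatocytes, 0.054 in round spermatids and 0.255 in Leydig cells. For all probe sets it was 0.131, 0.0349, 0.048 and 0.0556. With the replicate number as a block, 3 of the 25 passed in spermatocytes (Birc2, adjusted p = 0.0302, Bcl2l11, 0.0199, and Bcl2l14, 0.0114) and 0 in polysome RNA. Centring each array on its median instead moved the median of all probe sets to -0.0341 in polysome RNA and -0.119 in Leydig cells. It also turned the split of all Leydig cell calls from 8600 higher and 4938 lower to 6075 and 9829, and that of the members to 6 higher and 3 lower. In spermatocytes it turned the split of all calls from 1873 and 1948 to 911 and 1709, and that of the members to 3 and 3. With any 1 of the 4 Leydig arrays left out, none of the 13 Leydig calls remained, since 1 residual degree of freedom was left, and the adjusted p of the 13 then lay between 0.0518 and 0.168. All 13 kept their direction. With near arrays averaged, 0 of 25 passed in spermatocytes and 0 in round spermatids.

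**Figure D1:**
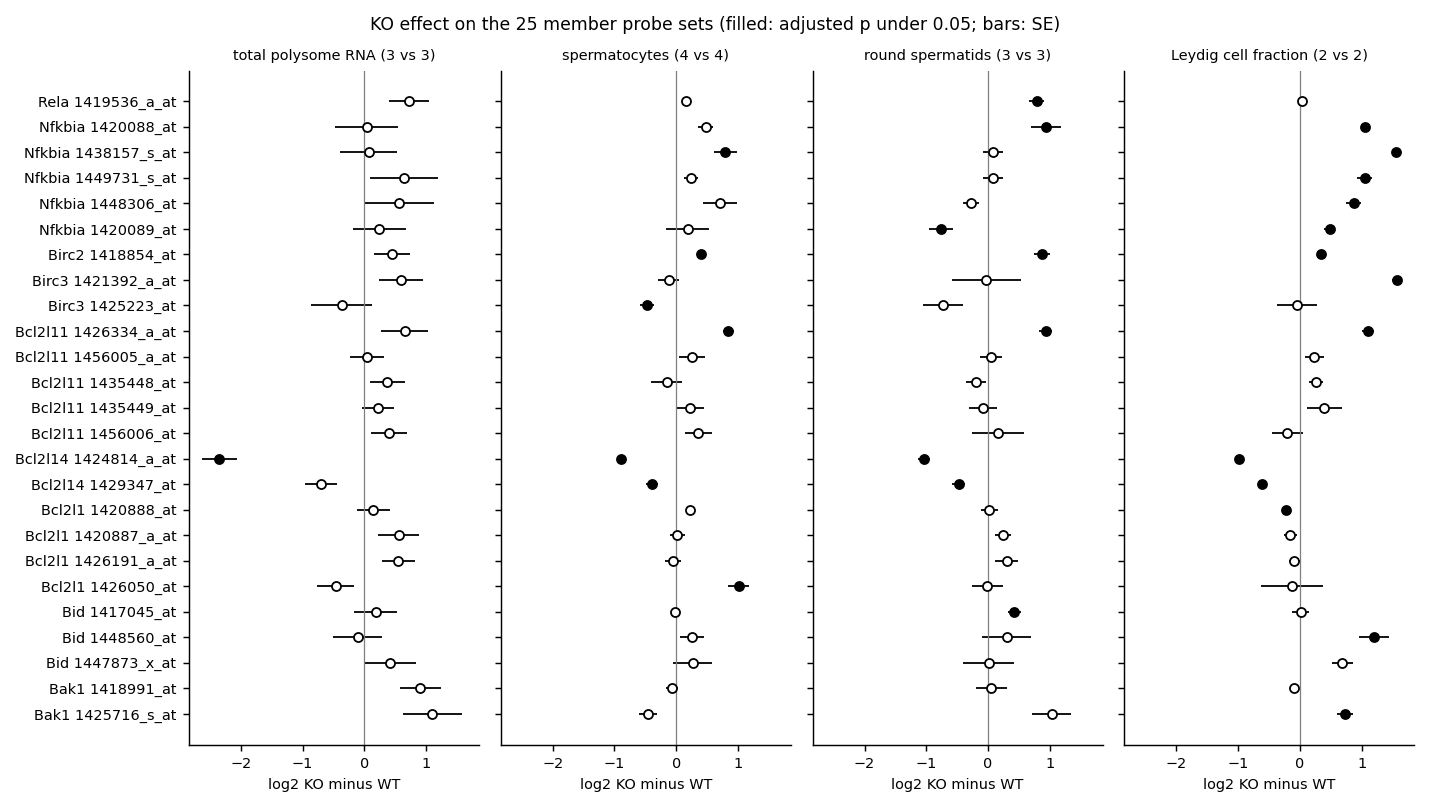
Log2 difference of KO minus WT (x axis) for the 25 member probe sets (rows) in 4 sources; bars are SE and filled points have an adjusted p under 0.05. Both Bcl2l14 probe sets lie below 0 in all panels, and the 5 Nfkbia probe sets lie above 0 together in the Leydig cell panel.

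Rela encodes the p65 subunit of NF-kappaB and had a single probe set, 1419536_a_at. In WT spermatocytes its signal was 2568, 2595, 2712 and 2643, and in KO spermatocytes 3062, 3052, 2878 and 2817. In WT round spermatids it was 722, 752 and 711, and in KO round spermatids 1233, 1166 and 1413. All 3 KO round spermatid arrays lay above all WT ones, and the KO spermatocyte arrays lay above the WT arrays by a smaller margin. WT Leydig cells gave 1789 and 1740 and KO Leydig cells 1791 and 1821. Total polysome RNA gave 1878, 2566 and 1308 in WT and 2986, 3640 and 2621 in KO, and the 3 KO arrays lay above the WT arrays. The difference passed the test in round spermatids (0.79 ± 0.12, adjusted p = 0.011) and did not in spermatocytes (0.17 ± 0.06, adjusted p = 0.162), Leydig cells (0.03 ± 0.05, 0.615) or polysome RNA (0.72 ± 0.32, 0.567).

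The KO effect on Rela was larger in round spermatids than in spermatocytes by 0.62 ± 0.11 (adjusted p = 0.00402). This call held without any 1 array (adjusted p up to 0.0116) and with the replicate block (0.0241). With near arrays averaged it was lost (0.259), also when that fit was limited to probe sets at or above the median (0.0694). In Leydig cells minus round spermatids the difference of KO effects was -0.75 ± 0.14 (adjusted p = 0.0171), a call lost without any 1 of the 4 Leydig arrays (adjusted p up to 0.0848). Over the first of these differences of KO effects 4 member probe sets passed, all higher, against 12.7% of all (8.35% higher and 4.34% lower). Over the second 5 passed, 4 higher and 1 lower, against 11.3% (5.84% and 5.49%). The round spermatid call held without any 1 array (adjusted p up to 0.0488) and was lost with the replicate block (0.0554). With arrays 1 and 2 averaged its adjusted p was 0.141, and 0.0244 when that fit was limited to probe sets at or above the median. Spermatocyte markers passed as higher in 4 of 7 genes in KO round spermatids, with sums of 41472 to 55692 in WT and 45408 to 54047 in KO, and 2 of 4 Leydig cell markers passed as higher. Their part in the Rela result was not tested. From WT spermatocytes to WT round spermatids Rela fell by 1.83 ± 0.08 (adjusted p = 3.2e-06), and in KO it fell by 1.21 ± 0.10 (adjusted p = 5.23e-05). In the order of the means of the 8 groups other than the IP samples, to which all such orders here are limited, KO polysome RNA (3082) and KO spermatocytes (2952) overlapped, as did WT polysome RNA (1917) and KO Leydig cells (1806). WT round spermatids, at 728, were lowest.

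**Figure D2:**
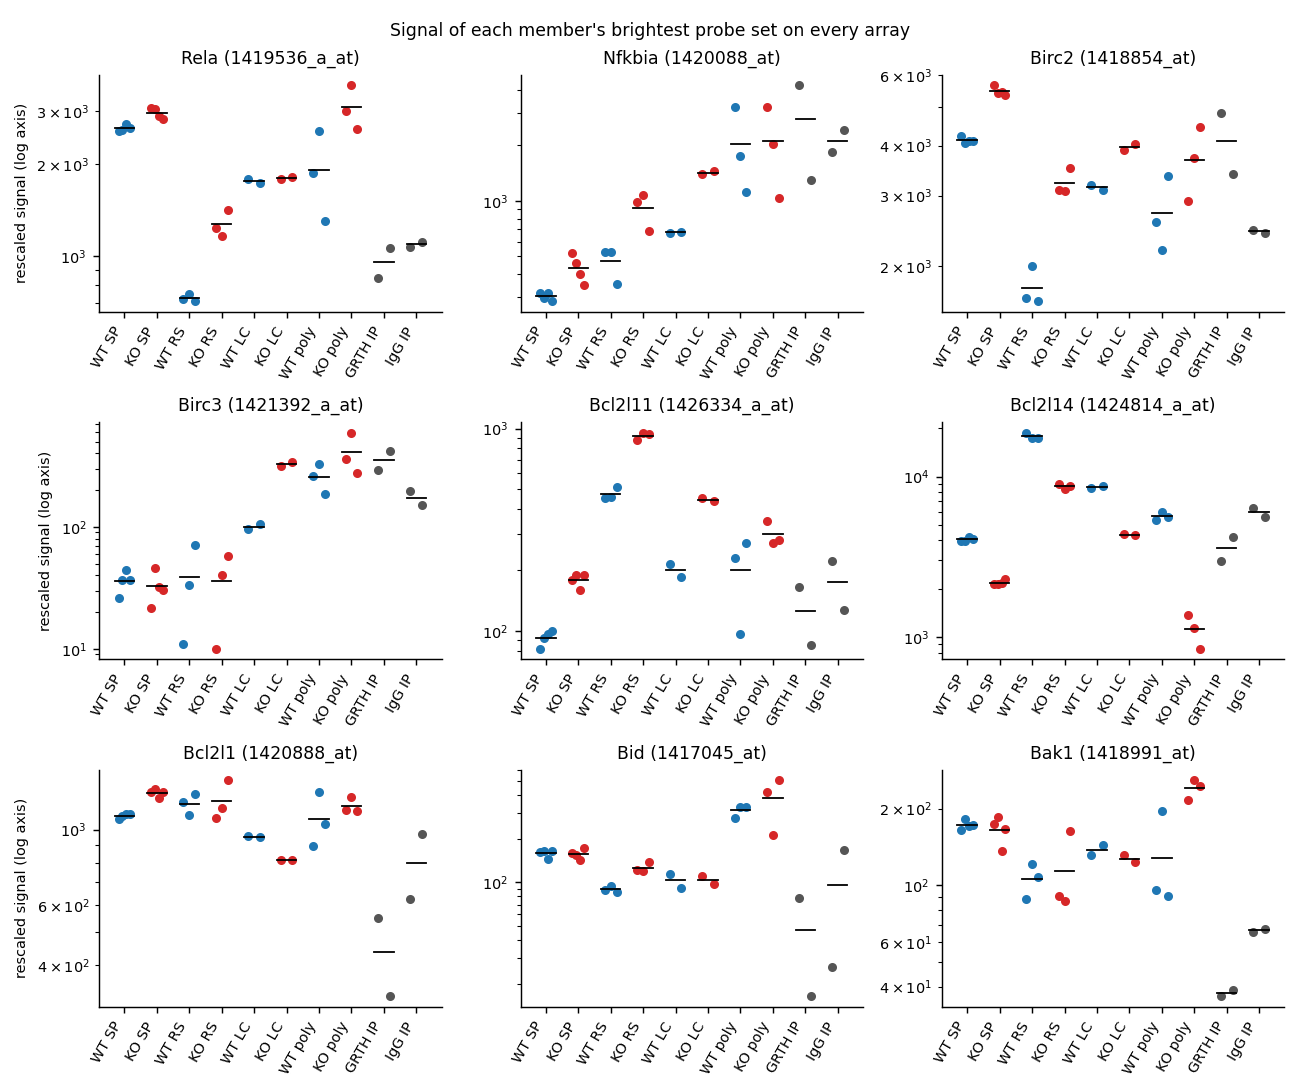
Rescaled signal (y axis, log scale) of the brightest probe set of each of the 9 genes on every array, by group (SP spermatocytes, RS round spermatids, LC Leydig cells, poly total polysome RNA); blue points are WT, red KO and grey IP arrays, and lines are group means. The 3 WT round spermatid arrays of Rela lie between 711 and 752 and the 3 KO ones between 1166 and 1413.

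Nfkbia encodes I-kappaB alpha, the inhibitor that retains Rela in the cytoplasm and whose own gene is a textbook target of NF-kappaB. It had 5 probe sets, which rose together in the KO Leydig cell fraction and disagreed in germ cells. The brightest, 1420088_at, read 671 and 680 in WT Leydig cells and 1390 and 1445 in KO. Probe set 1438157_s_at read 228 and 228 in WT and 696 and 701 in KO. On both probe sets the KO arrays lay far above the WT arrays. All 5 rose in KO Leydig cells, by 1.05 ± 0.05 (1420088_at, adjusted p = 0.00595), 1.55 ± 0.04 (1438157_s_at, 0.00577), 1.05 ± 0.12 (1449731_s_at, 0.0183), 0.87 ± 0.13 (1448306_at, 0.0259) and 0.48 ± 0.09 (1420089_at, 0.04). Leydig cell markers passed as higher in 4 of 4 genes, with sums of 20473 to 20492 in WT and 37899 to 38489 in KO. Macrophage markers passed as higher in 6 of 7 genes, with sums of 3038 to 3098 in WT and 7381 to 7390 in KO, while 6 of 7 elongating spermatid markers passed as lower. Of the other lists, 2 of 4 spermatogonial, 1 of 3 peritubular and 1 of 7 Sertoli cell markers passed as higher, 2 of 7 Sertoli cell and 4 of 6 round spermatid markers as lower, and 0 of 7 spermatocyte and 0 of 4 endothelial markers either way. Their part in the result was not tested.

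In germ cells the Nfkbia probe sets disagreed. In spermatocytes 1420088_at read 314, 297, 317 and 285 in WT and 522, 457, 402 and 348 in KO, groups that did not overlap, without passing the test (0.48 ± 0.12, adjusted p = 0.0544). There 1438157_s_at rose by 0.80 ± 0.18 (adjusted p = 0.0334), a call lost without any 1 of 7 of the 8 arrays (adjusted p up to 0.0853). In round spermatids 1420088_at read 528, 527 and 352 in WT and 990, 1077 and 684 in KO and rose by 0.94 ± 0.24, at the limit of the test (adjusted p = 0.05). In the same cells 1420089_at, which read 113, 138 and 95.7 in WT and 48.1, 76.6 and 60.3 in KO, fell by 0.76 ± 0.19 (adjusted p = 0.046). Both round spermatid calls were lost without 5 of the 6 arrays in turn, at adjusted p up to 0.148 and 0.129. The KO effect in Leydig cells minus that in round spermatids passed as positive on 4 of the 5 probe sets. It was 1.47 ± 0.22 on 1438157_s_at (adjusted p = 0.00845), 1.15 ± 0.19 on 1448306_at (0.011), 1.25 ± 0.26 on 1420089_at (0.0238) and 0.97 ± 0.24 on 1449731_s_at (0.0388). On 1420088_at that difference was 0.11 ± 0.32 (adjusted p = 0.866). On 1420089_at it set a rise in Leydig cells against a fall in round spermatids. On 1448306_at the round spermatid means were 96.7 in WT and 77.5 in KO. The call of 1438157_s_at was lost only without KO Leydig array 1 or 2 (adjusted p up to 0.0513), and the other 3 were lost without these and further arrays (adjusted p up to 0.149).

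WT Leydig cells had more Nfkbia signal than the mean of the 2 WT germ cell groups on 3 probe sets, by 0.83 ± 0.15 (1420088_at, adjusted p = 0.00745), 1.04 ± 0.17 (1438157_s_at, 0.00508) and 0.84 ± 0.18 (1449731_s_at, 0.0143). In that comparison 7 of 25 member probe sets passed, 5 higher and 2 lower, against 20.4% of all (12.1% and 8.26%), and the 3 Nfkbia calls were lost without either WT Leydig array (adjusted p up to 0.153). Macrophage markers were higher in WT Leydig cells in 5 of 7 genes, with sums of 3038 to 3098 against 416 to 451 in WT spermatocytes and 1655 to 1723 in WT round spermatids, and Sertoli cell markers in 4 of 7. From WT spermatocytes to WT round spermatids 3 Nfkbia probe sets rose, by 0.58 ± 0.16 (1420088_at, adjusted p = 0.0182), 1.08 ± 0.28 (1448306_at, 0.0173) and 1.17 ± 0.27 (1420089_at, 0.00927). The call of 1420088_at was lost without WT round spermatid array 1 or 2 (adjusted p up to 0.0652) and that of 1448306_at without array 1 (0.0543). With near arrays averaged their adjusted p was 0.203 and 0.0578, and with the replicate block 0.0801 and 0.0706. The fit with near arrays averaged gave 0.0941 and 0.018 when limited to probe sets at or above the median. In the same step macrophage markers passed as higher in 6 of 7 genes, peritubular markers in 3 of 3 and Sertoli cell markers in 3 of 7, while Leydig cell markers were lower in 4 of 4. The part of these markers in the Leydig cell and stage results was not tested. In KO the rise passed on 1420088_at alone, by 1.05 ± 0.20 (adjusted p = 0.00436). In polysome RNA 1420088_at read 3226, 1745 and 1116 in WT and 3248, 2029 and 1029 in KO. The means of these groups, 2029 and 2102, were the highest of the 8 groups other than the IP samples. The WT and KO polysome arrays overlapped on all 5 probe sets and none passed there.

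**Figure D3:**
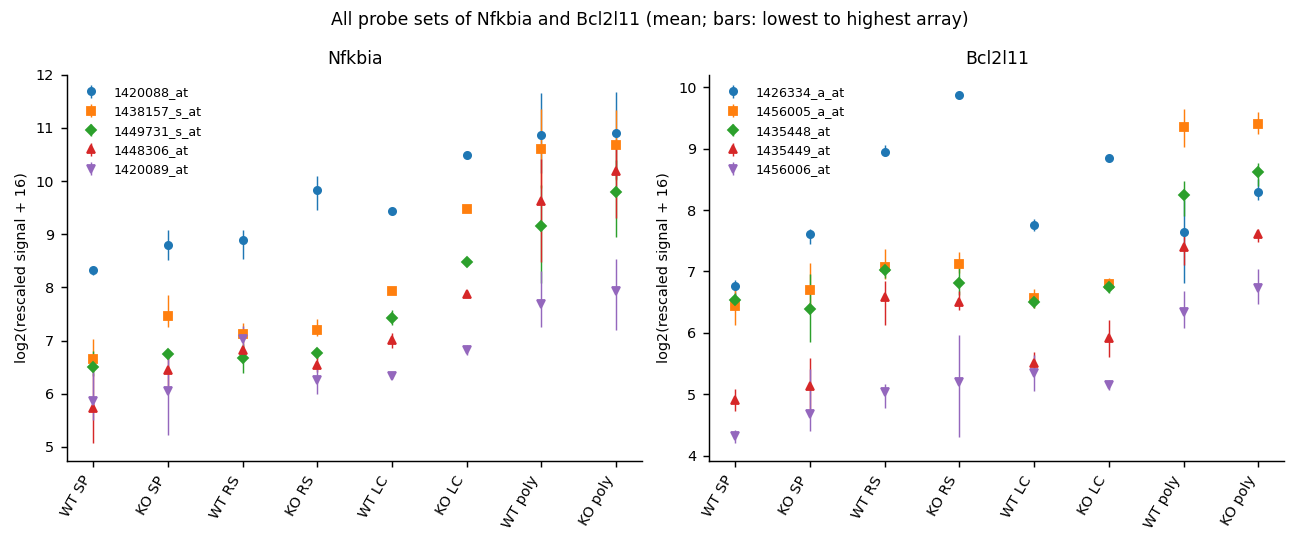
Mean of log2(rescaled signal + 16) (y axis) for the 5 probe sets of Nfkbia and the 5 of Bcl2l11 in 8 groups; bars run from the lowest to the highest array, and levels of different probe sets are not comparable. All 5 Nfkbia probe sets are higher in KO than in WT Leydig cells, and among the Bcl2l11 probe sets 1426334_a_at is higher in KO in the 3 cell fractions.

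Birc2 encodes cIAP1, a ubiquitin ligase that keeps tumour necrosis factor signalling on the survival path. Its single probe set, 1418854_at, read 4216, 4067, 4109 and 4101 in WT spermatocytes and 5656, 5418, 5458 and 5359 in KO. In round spermatids it read 1668, 1997 and 1637 in WT and 3092, 3086 and 3513 in KO. In both cell types every KO array lay above every WT array, by a wider margin in round spermatids. The Leydig cell fraction gave 3193 and 3094 in WT and 3909 and 4036 in KO, again without overlap. Birc2 rose by 0.41 ± 0.06 in spermatocytes (adjusted p = 0.00564), 0.87 ± 0.13 in round spermatids (0.0113) and 0.34 ± 0.05 in Leydig cells (0.0263). The KO effect was larger in round spermatids than in spermatocytes by 0.46 ± 0.12 (adjusted p = 0.026), a call lost without WT round spermatid array 1 or KO round spermatid array 3 (adjusted p up to 0.0648). The spermatocyte call held without any 1 array (adjusted p up to 0.0217). The round spermatid call was lost without WT array 1 or KO array 2 (adjusted p up to 0.0505) and with the replicate block (0.0569). With each array centred on its median instead, the calls in spermatocytes and Leydig cells were lost (adjusted p = 0.0533 and 0.102). With near arrays averaged the adjusted p was 0.395 in spermatocytes and 0.132 in round spermatids. Limited to probe sets at or above the median, that fit gave 0.11 and 0.0209. In KO spermatocytes, where Birc2 and Bcl2l11 rose, 2 of 4 Leydig cell markers passed as higher, with sums of 4019 to 4645 in WT and 5714 to 6321 in KO, as did 2 of 3 peritubular markers. In KO round spermatids 4 of 7 spermatocyte markers passed as higher, though their sums overlapped (41472 to 55692 in WT and 45408 to 54047 in KO). There 2 of 4 Leydig cell markers also passed as higher, and 3 of 6 round spermatid markers as lower. The part of all these markers in these results was not tested.

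In polysome RNA Birc2 read 2584, 2190 and 3349 in WT and 2914, 3724 and 4439 in KO, which overlapped (0.45 ± 0.30, adjusted p = 0.692). From spermatocytes to round spermatids it fell by 1.22 ± 0.10 in WT (adjusted p = 4.74e-05) and by 0.76 ± 0.08 in KO (0.000284). KO spermatocytes, with a mean of 5473, were highest and WT round spermatids, at 1767, lowest. Between these, KO Leydig cells, KO polysome RNA, KO round spermatids, WT Leydig cells and WT polysome RNA each overlapped with the next in the order.

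Birc3 encodes cIAP2, the close relative of cIAP1 whose gene is a neighbour of Birc2 on mouse chromosome 9. Its brighter probe set, 1421392_a_at, read 95.6 and 105 in WT Leydig cells and 316 and 341 in KO Leydig cells. It read 26.3 to 44.7 in WT and 21.5 to 46.3 in KO spermatocytes, and 10.9 to 71.4 in WT and 10 to 58 in KO round spermatids. The KO Leydig arrays thus stood clear of WT, while the germ cell groups overlapped. Birc3 rose in KO Leydig cells by 1.57 ± 0.07 (adjusted p = 0.00603) and did not pass in spermatocytes (-0.12 ± 0.17, 0.733) or round spermatids (-0.03 ± 0.55, 0.98). The KO effects in Leydig cells and round spermatids differed by 1.59 ± 0.76, which did not pass (adjusted p = 0.225). Without any 1 Leydig array the Leydig cell difference was 1.51 to 1.63. With the replicate block the Leydig call was lost (adjusted p = 0.0517), but held when that fit was limited to probe sets at or above the median (0.0063). In KO Leydig cells 4 of 4 Leydig cell and 6 of 7 macrophage markers passed as higher, and 6 of 7 elongating spermatid markers as lower. Their part in the Birc3 result was not tested. Polysome RNA gave 262, 328 and 187 in WT and 362, 590 and 276 in KO, which overlapped (0.60 ± 0.36, adjusted p = 0.665). The dim second probe set, 1425223_at, lay below the median of all probe sets in every group. On it, Birc3 read 33.3, 25.2, 33.1 and 35.6 in WT spermatocytes and 22.5, 17.0, 20.5 and 13.7 in KO, a difference of -0.48 ± 0.11 (adjusted p = 0.0372) that was lost without 6 of the 8 arrays in turn (adjusted p up to 0.0943).

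Bcl2l11 encodes Bim, a BH3-only protein that binds and disables the protective members of the family. Its brightest probe set, 1426334_a_at, read 81.9, 92.6, 96.2 and 99.7 in WT spermatocytes and 178, 188, 159 and 190 in KO. In WT round spermatids it read 455, 459 and 514 and in KO 882, 952 and 935. Leydig cells gave 215 and 185 in WT and 455 and 438 in KO. In each of these 3 fractions the KO arrays were all above the WT arrays. Bcl2l11 rose on this probe set by 0.84 ± 0.09 in spermatocytes (adjusted p = 0.00129), 0.93 ± 0.11 in round spermatids (0.00605) and 1.10 ± 0.09 in Leydig cells (0.0111). Differences between these KO effects did not pass, at 0.09 ± 0.13 (adjusted p = 0.703) for round spermatids minus spermatocytes and 0.17 ± 0.14 (0.514) for Leydig cells minus round spermatids. The calls in spermatocytes and round spermatids held without any 1 array, at adjusted p up to 0.00657 and 0.0391. With near arrays averaged they were lost (adjusted p = 0.281 and 0.131), but held when that fit was limited to probe sets at or above the median (0.0416 and 0.0193).

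The other 4 Bcl2l11 probe sets did not pass in any of the 4 KO comparisons, with differences of -0.20 to 0.40. In polysome RNA 1426334_a_at read 230, 97.0 and 272 in WT and 348, 272 and 281 in KO (0.65 ± 0.39, adjusted p = 0.658), and the WT array at 97.0 was apart from the rest. From spermatocytes to round spermatids all 5 rose in WT, by 2.18 ± 0.10 on 1426334_a_at (adjusted p = 3.72e-06) and 1.68 ± 0.20 on 1435449_at (0.000341), and by 0.48 to 0.71 on the other 3. Of these, the call of 1456005_a_at was lost without 5 of the 7 arrays in turn (adjusted p up to 0.101), with the replicate block (0.162) and with near arrays averaged (0.115). The last of these fits gave 0.0442 when limited to probe sets at or above the median. In KO the rise passed on the first 2, at 2.27 ± 0.09 (adjusted p = 3.84e-06) and 1.37 ± 0.24 (0.00301). KO round spermatids had the highest mean on 1426334_a_at (923) and WT spermatocytes the lowest (92.6). On the other 4 probe sets KO total polysome RNA had the highest mean of the 8 groups.

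Bid encodes a BH3-only protein that caspase-8 cleaves to link death receptors to mitochondria. Its brightest probe set, 1417045_at, read 145 to 164 in WT and 144 to 172 in KO spermatocytes, which overlapped. In WT round spermatids it read 88.0, 94.9 and 85.3 and in KO 122, 119 and 137, without overlap. Bid rose in KO round spermatids by 0.43 ± 0.11 (adjusted p = 0.0477), a call lost without any 1 of the 6 arrays (adjusted p 0.0762 to 0.135). The KO effect was larger there than in spermatocytes by 0.44 ± 0.12 (adjusted p = 0.0312), a call lost without 8 of the 14 arrays in turn (adjusted p up to 0.0656). From spermatocytes to round spermatids Bid fell by 0.73 ± 0.09 in WT (adjusted p = 0.000398) and by 0.29 ± 0.09 in KO (0.0449), the latter lost without 5 of 7 arrays in turn (adjusted p up to 0.137). In Leydig cells 1417045_at had means of 103 in WT and 104 in KO, which overlapped, and the difference of 0.01 did not pass. Only the dim probe set 1448560_at passed there. It read 8.39 and 2.01 in WT and 26.2 and 39.0 in KO Leydig cells, a rise of 1.20 ± 0.24 (adjusted p = 0.045). It and 1447873_x_at lay below the median of all probe sets in every group.

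Bcl2l14 encodes Bcl-G, a Bcl-2 family protein with a BH3 region that is most abundant in testis. On 1424814_a_at, WT round spermatids read 18704, 17253 and 17465 and KO round spermatids 8944, 8410 and 8671. WT spermatocytes read 3961, 3986, 4177 and 4079 and KO spermatocytes 2132, 2135, 2178 and 2282. In each of these cell types the WT arrays lay far above the KO arrays, without overlap. WT Leydig cells read 8462 and 8693 and KO 4355 and 4336. Total polysome RNA read 5329, 6040 and 5626 in WT and 1364, 1145 and 847 in KO, again without overlap. Bcl2l14 fell in all 4 sources, with differences of -2.35 ± 0.28 in polysome RNA (adjusted p = 0.0172), -0.89 ± 0.06 in spermatocytes (0.000234), -1.04 ± 0.10 in round spermatids (0.00414) and -0.98 ± 0.04 in Leydig cells (0.00595).

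The second Bcl2l14 probe set, 1429347_at, read 912, 981 and 931 in WT and 648, 702 and 665 in KO round spermatids. It fell in the 3 cell fractions, with differences of -0.39 ± 0.10 in spermatocytes (adjusted p = 0.0491), -0.48 ± 0.10 in round spermatids (0.0277) and -0.62 ± 0.05 in Leydig cells (0.0104). The first 2 of these calls were lost without 7 of 8 and 5 of 6 arrays in turn (adjusted p up to 0.113 and 0.0981). In polysome RNA the difference was -0.70 ± 0.26 without passing (adjusted p = 0.476). On 1424814_a_at the KO effect in polysome RNA minus that in round spermatids was -1.31 ± 0.28, which did not pass (adjusted p = 0.144). For that comparison 0 of 25 members passed by limma, 1 had an unadjusted p under 0.05, and 0.0266% of all probe sets passed (0.0155% higher and 0.0111% lower). From spermatocytes to round spermatids 1424814_a_at rose by 2.13 ± 0.08 in WT (adjusted p = 2.4e-06) and 1.98 ± 0.08 in KO (3.62e-06). That rise differed between genotypes by -0.15 ± 0.09 (adjusted p = 0.354). WT round spermatids were highest on both probe sets and KO polysome RNA lowest.

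Without any 1 of the 6 polysome arrays the Bcl2l14 difference was -2.50 to -2.16 and its adjusted p 0.0571 to 0.0992. The replicate block gave 0.0911 there, and 0.00153 when limited to probe sets at or above the median. Centring on the median gave 0.00904 and quantile normalization 0.0045. The call was lost with an offset of 1 and with the deposited values not rescaled. Without the 3 polysome arrays whose free-text description disagrees with their title, WT kept only 1 array and the difference was -2.50. The calls of 1424814_a_at in spermatocytes and round spermatids held without any 1 array, and with near arrays averaged the adjusted p was 0.271 and 0.126. Limited to probe sets at or above the median, that fit gave 0.0333 and 0.0152. In polysome RNA 6 of 7 elongating spermatid markers passed as lower beside Bcl2l14, with sums of 158489 to 339619 in WT and 23621 to 46090 in KO. They also passed as lower in spermatocytes in 7 of 7 genes, with sums of 97720 to 123414 in WT and 58286 to 65686 in KO. In round spermatids 1 of the 7 passed as lower, with sums of 213058 to 295780 in WT and 149351 to 192238 in KO. In Leydig cells 6 of the 7 passed as lower, with sums of 126688 to 128040 in WT and 93804 to 95753 in KO. Round spermatid markers passed as lower in 3 of 6 genes in round spermatids (sums of 87563 to 103290 in WT against 61970 to 66723 in KO). They did so in 4 of 6 in spermatocytes (22045 to 23633 against 15267 to 17283) and in 2 of 6 in polysome RNA. In Leydig cells 4 of the 6 passed as lower (44229 to 44926 against 32153 to 32761). The part of these marker lists in the Bcl2l14 result was not tested.

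Bcl2l1 encodes Bcl-xL, the family's protector of mitochondria in many cells. On its brightest probe set, 1420888_at, WT spermatocytes read 1071 to 1114 and KO spermatocytes 1243 to 1313, without overlap, and the difference did not pass (0.22 ± 0.06, adjusted p = 0.0576). Round spermatids read 1101 to 1272 in WT and 1080 to 1396 in KO and overlapped. WT Leydig cells read 960 and 949 and KO 815 and 816, a difference of -0.22 ± 0.04 (adjusted p = 0.0419). Polysome RNA overlapped between genotypes, at 894 to 1288 in WT and 1133 to 1252 in KO. No call was made between round spermatids and spermatocytes for 1420888_at, with differences of 0.11 ± 0.09 in WT and -0.09 ± 0.11 in KO. The remaining probe sets, 1420887_a_at and 1426191_a_at, passed in none of the 4 KO comparisons. The very dim 1426050_at read 1.92 to 5.01 in WT and 13.3 to 33.9 in KO spermatocytes and rose by 1.01 ± 0.17 (adjusted p = 0.0122).

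Bak1 encodes Bak, which forms pores in the outer mitochondrial membrane. On 1418991_at spermatocytes read 165 to 182 in WT and 136 to 185 in KO, and round spermatids 88.2 to 121 and 86.7 to 164. Polysome RNA read 95.7, 196 and 90.5 in WT and 216, 258 and 246 in KO, and although the groups did not overlap the difference did not pass (0.91 ± 0.33, adjusted p = 0.467). Bak1 fell from spermatocytes to round spermatids in WT by 0.64 ± 0.11 on 1418991_at (adjusted p = 0.00271) and by 1.61 ± 0.21 on the dim 1425716_s_at (0.000601). In Leydig cells the brighter 1418991_at had means of 137 in WT and 127 in KO, a difference of -0.10 that did not pass. With quantile normalization it passed there as lower (-0.33 ± 0.06, adjusted p = 0.045). The dim 1425716_s_at went the other way: KO Leydig cells read 45.6 and 43.9 against 25 and 16.7 in WT, a rise of 0.73 ± 0.14 (adjusted p = 0.0412). Its KO effect in round spermatids minus that in spermatocytes was 1.49 ± 0.34 (adjusted p = 0.014). Neither KO effect passed by itself, and they ran in opposite directions, as the spermatocyte means were 65.8 in WT and 44.7 in KO. The call of the difference was lost with the replicate block (0.0531) and with near arrays averaged (0.219). Round spermatid levels on 1425716_s_at were low, at 14.4, 18.4 and 2.32 in WT and 50.2, 23.4 and 46.2 in KO.

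Between round spermatids and spermatocytes, 17 of 25 member probe sets passed in WT, against 47.9% of all probe sets (23.7% higher and 24.3% lower), and 8 in KO, against 43.9% (21.7% and 22.2%). In WT 12 were higher in round spermatids and 5 lower, and in KO 5 and 3. On the brightest probe set of each gene, Bcl2l11, Bcl2l14 and Nfkbia were higher in round spermatids of both genotypes, and Rela, Birc2 and Bid lower. In KO only 1 of the 5 Nfkbia and 2 of the 5 Bcl2l11 probe sets passed, and Nfkbia 1438157_s_at had a difference of -0.26 ± 0.18 there (adjusted p = 0.283). The median of the 25 was 0.42 in WT and 0.087 in KO, beside 0.0825 and 0.0547 for all probe sets. Centring on the median turned the WT split of all calls from 10658 higher and 10933 lower to 7969 and 12944, and that of the members to 7 and 5. The change differed between genotypes on 4 member probe sets, those of Rela, Birc2, Bid and Bak1 (1425716_s_at) given above.

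**Figure D4:**
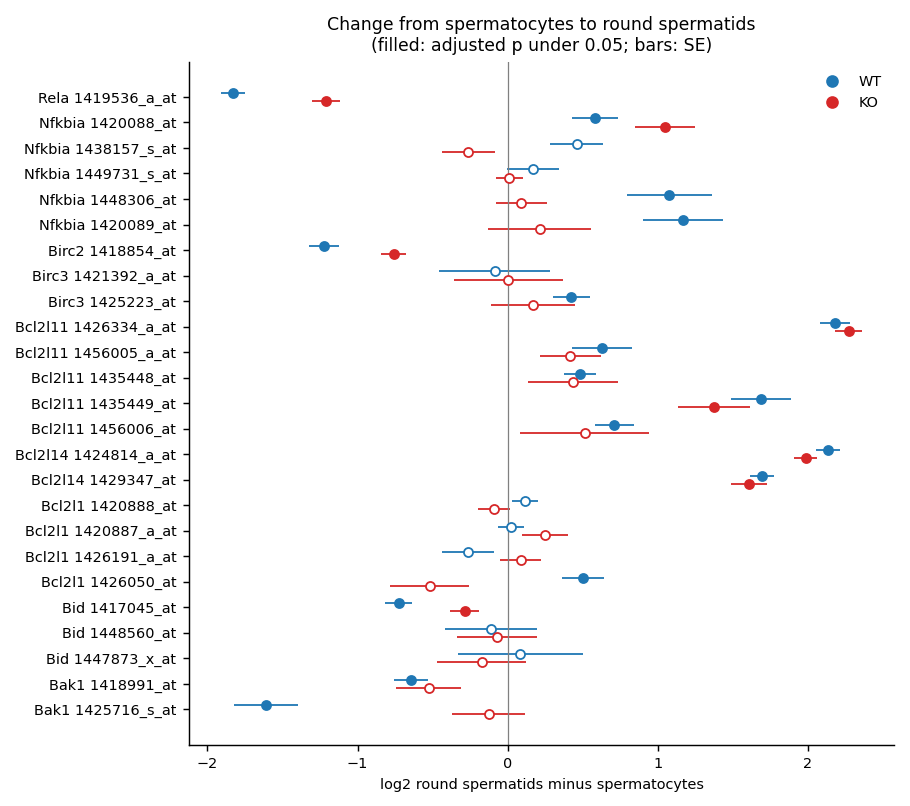
Log2 difference of round spermatids minus spermatocytes (x axis) for the 25 member probe sets (rows) in WT (blue) and KO (red); bars are SE and filled points have an adjusted p under 0.05. Both Bcl2l14 probe sets lie between 1.61 and 2.13, and Rela lies at -1.83 in WT and -1.21 in KO.

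GRTH IP was compared with IgG IP, which addresses the transcripts that GRTH binds on polysomes. Here 0 of 25 member probe sets passed, against 0% of all, and 1 had an unadjusted p under 0.05 by limma (Bcl2l1 1420887_a_at). Bcl2l14 read 2991 and 4220 in GRTH IP and 6406 and 5587 in IgG IP (-0.75 ± 0.75 on 1424814_a_at). Birc2 read 4813 and 3395 in GRTH IP and 2468 and 2425 in IgG IP (0.72 ± 0.75). Rela read 848 and 1060 against 1073 and 1109, and Nfkbia (1420088_at) 4240 and 1299 against 1832 and 2410. The actin 3' to 5' ratio was 3.81 to 12.8 on these 4 arrays and 1.41 to 2.09 on the others, and its part in the result was not tested.

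Of 78 other genes of apoptosis and NF-kappaB signalling listed, 66 were measured by a probe set with 1 symbol, in 5 groups. In polysome RNA 0 of the 66 passed (6 at an unadjusted p under 0.05 by limma, lowest adjusted p = 0.117), against 0.022% of all genes as higher and 1.07% as lower by 1 probe set per gene. In spermatocytes 5 were higher and 3 lower, in round spermatids 13 and 4, and in Leydig cells 22 and 6. Without any 1 Leydig array, or with the replicate block, the Leydig counts were 0 and 0, and with arrays centred on the median 17 and 10. In round spermatids they ran from 3 and 3 (without WT or KO array 2) to 12 and 4 (without WT array 3), with 5 and 3 under the block. With near arrays averaged, 0 passed in spermatocytes and 0 in round spermatids. On the same basis 5.42%, 13.6% and 22.4% of all genes passed as higher in these 3 and 6.41%, 8.57% and 14.8% as lower. Nfkbiz, an atypical I-kappaB protein of the nucleus, fell in all 3, with differences of -1.17 ± 0.08 in spermatocytes (adjusted p = 0.000196), -2.52 ± 0.20 in round spermatids (0.00287) and -1.66 ± 0.06 in Leydig cells (0.00577). Nfkbib, the I-kappaB beta gene, fell as well, with differences of -0.32 ± 0.06, -0.83 ± 0.09 and -0.85 ± 0.05 in the same order. Among NF-kappaB genes 3 of 18 rose and 3 fell in round spermatids, where Bcl3, another nuclear I-kappaB, fell by 1.79 ± 0.17 (adjusted p = 0.00446).

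In the Bcl-2 family list 6 of 15 genes rose and 1 fell in KO round spermatids, against 13.6% and 8.57% of all genes by 1 probe set per gene. As given above, no gene of the whole pathway list passed there with near arrays averaged. Bad, a BH3-only gene, read 937 in WT and 1845 in KO (0.95 ± 0.14, adjusted p = 0.0116), and Bcl2l12 read 360 and 776 (1.08 ± 0.11, 0.00518). Bok, a relative of Bak1, rose by 1.39 ± 0.20 there (adjusted p = 0.00989) and by 1.05 ± 0.05 in Leydig cells (0.00603). Mcl1, a protector, fell by 0.51 ± 0.10 in round spermatids (adjusted p = 0.0234). In Leydig cells Bnip3, a mitochondrial BH3-type protein, rose by 1.17 ± 0.04 (adjusted p = 0.00577) and Xiap, an inhibitor of caspases, by 1.23 ± 0.06 (0.00595), while Birc5, survivin, fell by 0.52 ± 0.05 (0.0118). In spermatocytes Cflar, an inhibitor of caspase-8, rose by 0.54 ± 0.09 (adjusted p = 0.0121), Birc6 by 0.65 ± 0.14 (0.0273), Bnip3 by 0.42 ± 0.06 (0.00559) and Nfkbie by 0.48 ± 0.08 (0.0119), and Pmaip1, the BH3-only gene Noxa, fell by 0.59 ± 0.08 (0.00443). Htra2, a mitochondrial protease, rose in round spermatids by 0.75 ± 0.10 (adjusted p = 0.00958) and Cycs, cytochrome c, in Leydig cells by 0.62 ± 0.04 (0.0083).

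Between round spermatids and spermatocytes, 22 of the 66 genes rose and 19 fell in WT, and 24 rose and 19 fell in KO. By 1 probe set per gene 30.7% of all genes rose and 28.6% fell in WT, and 29.5% and 25.9% in KO. Cycs rose by 1.20 ± 0.09 in WT and 1.03 ± 0.07 in KO, and Nfkbib by 1.45 ± 0.08 and 0.93 ± 0.07. Bcl2l12 fell, with differences of -2.68 ± 0.10 and -1.88 ± 0.08, and so did Nfkbie, at -2.82 ± 0.10 and -2.92 ± 0.16. WT Leydig cells stood above the mean of the WT germ cells for 18 of the 66 genes and below it for 1, against 16.5% and 8.9% of all genes. Nfkbie (1.42 ± 0.09), Xiap (1.16 ± 0.11) and Bnip3 (1.02 ± 0.11) were among the 18, and Nfkbib (-0.28 ± 0.07) was the 1. The signed difference, KO effect in round spermatids minus that in spermatocytes, passed as positive for 7 of the 66 genes and negative for 4. Of all genes, 10.8% and 5.68% did so. For Leydig cells minus round spermatids it passed as positive for 5 and negative for 6, against 7.42% and 7.73%. A negative difference can be a larger fall, as for Nfkbiz and Nfkbib in round spermatids.

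Over all 28 arrays, the probe sets most like each member's brightest by Pearson correlation of log2 values were as follows. Across these arrays, which share groups, depth and batches, they describe likeness only. Bcl2l14 was nearest to Tssk2 (0.983), Sqor and Spem1, and Rela to Fancg (0.964), Eral1 and Tcam1. Nfkbia was nearest to Morf4l2 (0.951), Npl and Cul4b, and Birc2 to Usp45 (0.943), Dixdc1 and Trappc8. Birc3 was nearest to Eid1 (0.955), Elovl1 and Cnih1, and Bcl2l11 to Phka2 (0.930), Trpm6 and Dyrk2. Bcl2l1 was nearest to Baiap2 (0.914), N4bp3 and Zfr2, Bid to Gspt1 (0.964), Kdm2a and Smg5, and Bak1 to Vps52 (0.913), Capn11 and Nell2. Tssk2 is also one of the round spermatid markers used here.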

How the data were processed

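The array measured RNA with several short probes per transcript, summarised as 1 intensity per probe set. The deposited intensities were made by the authors with GCOS, per the submitters' processing notes, with its version not given in the sources used here. Of the 28 deposited columns, 24 had a trimmed mean of 500 and 4 polysome columns did not, so every array was rescaled to 500 (0.02 trimmed at each end). The 45037 probe sets that are not controls were tested without a filter on log2(signal + 16) with limma 3.58.1 in R 4.3.3 (lmFit and eBayes), with only the groups of each comparison in a fit and Benjamini-Hochberg adjustment over all probe sets at 0.05, for 11 comparisons. Python 3.11.15, pandas 2.3.3, numpy 2.4.6, scipy 1.17.1 and matplotlib 3.10.9 were used for the rest, and the fit was tested on simulated data.

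Groups come from the labels. The free-text description of 4 arrays disagrees with their title, and the title was used. The number of arrays limits the precision. Symbols come from the platform annotation (34945 probe sets with 1 symbol, 932 with several, 9160 with none). In probe set names, "_a_at" marks several transcripts of 1 gene, "_s_at" possible matches to more than 1 gene and "_x_at" possible cross-hybridisation. The members, the pathway and marker lists and the tests were chosen with earlier results of these data known.

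The rule for named genes was: all members with all their probe sets, Ddx25, up to 4 called pathway genes per direction and comparison with the smallest adjusted p, and the 3 probe sets most correlated with each member's brightest one. Genes of the 66 were measured by their brightest probe set. Deviations of same-numbered WT and KO arrays correlated at 0.146 to 0.304 in polysome RNA, so the data, not the labels, pair them there. For same-numbered GRTH IP and IgG IP arrays the correlation was 0.215. The main fits did not use this pairing, and the replicate block did. In spermatocytes the correlations were 0.0494 to 0.0709 over all probe sets and 0.131 to 0.187 over those at or above the median. Alternatives were other scalings, offsets, filters and spread estimates, the replicate block, near arrays averaged, 1 probe set per gene, and leaving out arrays. Promoter sequences are RefSeq's (GRCm38.p6).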

Additional observations from a re-analysis of the deposited data

Results flagged for a closer look

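Of 50 member groups of 4 arrays tested for a single array far from the rest, 2 stood out, and chance flags about 1 in 20 groups. For Bcl2l11 on 1456006_at the highest KO spermatocyte array read 26.6, and for Bid on 1417045_at the lowest WT spermatocyte array read 145.0.

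The KO effect differed between round spermatids and spermatocytes, by a test of the difference itself, for Rela (0.62), Birc2 (0.46), Bid (0.44) and Bak1 on 1425716_s_at (1.49). Among pathway genes the difference was 1.25 for Pmaip1, 0.80 for Bcl2l12, 0.83 for Bad and 0.63 for Htra2, and -1.36 for Nfkbiz, -0.52 for Nfkbib, -1.39 for Bcl3 and -0.45 for Mcl1.

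The KO effect in Leydig cells minus that in round spermatids was -0.75 for Rela, and 1.47, 0.97, 1.15 and 1.25 for 4 Nfkbia probe sets. It was 2.69 for Bcl3, 1.04 for Xiap, 0.89 for Cycs and 0.58 for Naip2. It was -0.85 for Birc5, -0.90 for Bcl2l12, -1.08 for Pmaip1 and -1.43 for Tnfrsf1b.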

How the results depend on the processing

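Over 130 results (called members and named genes), 2272 alternative values were computed: 1806 kept direction and side of the threshold, the others kept direction and lost the call, and 0 reversed. Counts of the 25 member probe sets that passed moved by over 1.5 times as follows, and the cause was not tested. The fit with 1 probe set per gene held only 9 member probe sets, so its counts are out of 9 and not comparable with those out of 25. Fits limited to probe sets at or above the median also held fewer than 25. In polysome RNA the 1 call became 0 with the deposited values not rescaled, with an offset of 1, with the replicate block and on leaving out arrays whose description conflicts with their title, and 6 with 24 arrays in 1 fit. In spermatocytes 7 became 3 with 24 arrays in 1 fit, 3 with the replicate block, 0 with near arrays averaged and 2 with near arrays averaged over probe sets at or above the median. In round spermatids 8 became 5 with an offset of 1, 3 with the replicate block and 0 with near arrays averaged. In Leydig cells 13 became 6 with 1 probe set per gene, 5 with 24 arrays in 1 fit and 0 with the replicate block. Between stages in WT 17 became 7 with 1 probe set per gene and 11 with the replicate block over probe sets at or above the median and with near arrays averaged, with or without that filter. For WT Leydig cells against germ cells 7 became 4 with 1 probe set per gene, 3 with 24 arrays in 1 fit and 4 with near arrays averaged. For the KO effect in round spermatids minus spermatocytes 4 became 2 with the replicate block and 0 with 24 arrays in 1 fit and with near arrays averaged, with or without the filter. For polysome RNA minus round spermatids 0 became 1 with quantile normalization, the filter, 24 arrays in 1 fit or an intensity trend, and 2 with the replicate block and the filter. For Leydig cells minus round spermatids 5 became 2 with 1 probe set per gene, 0 with 24 arrays in 1 fit and 3 with the replicate block. Leaving out 1 array gave 0 calls in polysome RNA, 4 to 6 in spermatocytes, 3 to 6 in round spermatids, 0 in Leydig cells, 13 to 18 between stages in WT, 7 to 10 in KO, 1 to 10 for Leydig against germ cells, 2 to 5 for round spermatids minus spermatocytes, 0 for polysome RNA minus round spermatids and 0 to 5 for Leydig cells minus round spermatids. Near arrays were averaged only in germ cell groups, and deposited values differ from rescaled ones only for polysome arrays. Dim probe sets, 5 of the 25, are limited by signal over background.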
